A study of Mus musculus with 17 samples.

Results

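The nuclear genes for respiratory complexes II, III and IV, cytochrome c and ATP synthase were examined in bulk RNA-seq of mouse haematopoietic stem cells. Members were the protein-coding genes of the GENCODE M21 annotation (GRCm38) whose symbol starts with Uqcr, Cox4, Cox5, Cox6, Cox7, Cox8 or Atp5, or is Sdha, Sdhb, Sdhc, Sdhd, Cyc1 or Cycs. That gave 50 of the 54838 genes in the count files, of which 21998 are protein-coding. There were 4 members of complex II, 9 of complex III, 18 of complex IV, 18 of ATP synthase, and cytochrome c itself. Expression passed the filter on low counts for 46 members. The other members were Cox6a2, Cox7b2, Cox8b and a second gene model named Atp5o, which had no count in any library.

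The study compared 17 libraries of C57BL/6 Jrj mice in 4 groups. Old Mito-Q mice (n = 5), over 18 months of age, received 5 daily injections of Mito-Q at 2 mg per kg. Old control mice (n = 3) were also over 18 months of age. Young CCCP mice (n = 5), aged 8 to 12 weeks, received 1 injection of CCCP at 0.3 mg per kg. Young control mice (n = 4) were also 8 to 12 weeks of age. The labels name no genetic change in any group and do not say whether controls were injected with vehicle. Mito-Q is a quinone antioxidant that is driven into mitochondria by its positive charge. CCCP is a protonophore that carries protons across the inner mitochondrial membrane. All groups were lineage-negative, c-Kit+, Sca1+, CD48-, CD150+ marrow cells, sorted after c-Kit enrichment. The labels do not say that each library came from a separate mouse, so p-values measure the spread between these libraries, which may be technical.

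Complex II oxidises succinate and passes electrons to ubiquinone. Complex III passes them on to cytochrome c and pumps protons, and complex IV hands them to oxygen. ATP synthase lets protons back through its membrane ring and makes ATP with its soluble head. Quiescent haematopoietic stem cells are known to lean on glycolysis, and mitochondrial membrane potential has been used to separate stem cells by function. The subunits examined here are encoded in the nucleus, made in the cytosol and imported, while a few core subunits of complexes III and IV and ATP synthase are encoded by mitochondrial DNA.

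The c subunits of the ATP synthase ring are shown because Atp5g1, Atp5g2 and Atp5g3 encode the same ring protein from similar coding sequences. The stretch is 90 coding bases, with capitals at the 20 positions where the 3 genes are not all alike (coding bases 280 to 369 of Atp5g1 on chromosome 11, 310 to 399 of Atp5g2 on chromosome 15, and 295 to 384 of Atp5g3 on chromosome 2, from GENCODE M21 transcripts).
Atp5g1: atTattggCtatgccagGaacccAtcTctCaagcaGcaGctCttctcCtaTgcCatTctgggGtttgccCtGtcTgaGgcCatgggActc
Atp5g2: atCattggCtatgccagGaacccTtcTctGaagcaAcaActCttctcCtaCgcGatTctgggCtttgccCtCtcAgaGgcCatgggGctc
Atp5g3: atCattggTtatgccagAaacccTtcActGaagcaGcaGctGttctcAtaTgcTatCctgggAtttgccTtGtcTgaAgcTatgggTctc
Over the last 225 coding bases, identity was 84.9% between Atp5g1 and Atp5g2, 80.0% between Atp5g1 and Atp5g3 and 78.7% between Atp5g2 and Atp5g3. The counting rule for reads that match more than 1 of them is not given in the sources used here, so their split is uncertain.

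Uqcrfs1 is shown with its upstream sequence because it had the smallest p-value of all members in the CCCP comparison. It encodes the Rieske iron-sulfur protein of complex III. The bases lie before its RefSeq start (table build GRCm38.p6), at chr13:30545333-30545566 on the minus strand, with the cAMP response element letters TGACGTCA in capitals.
Uqcrfs1: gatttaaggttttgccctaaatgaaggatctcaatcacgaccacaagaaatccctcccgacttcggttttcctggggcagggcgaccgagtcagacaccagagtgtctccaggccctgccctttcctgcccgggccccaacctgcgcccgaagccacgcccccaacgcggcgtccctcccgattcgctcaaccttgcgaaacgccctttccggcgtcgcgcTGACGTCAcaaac
The printed stretch is shorter than the one searched, because it stops shortly after it enters the gene as GENCODE M21 annotates it, and the marked letters lie within that annotated end. Motifs were searched on both strands in the whole 250 bases upstream of the RefSeq start, which were at hand for 35 members. TGACGTCA was in 2 of these 35 (5.71%, Cycs and Uqcrfs1), against 1.77% of 27025 genes. No filter for protein-coding genes was applied to those 27025, while the members are all protein-coding. The NRF1 core (GCGCA, any base, then GCGC) was in 7 (20.0%), against 4.23% of genes, and the ETS core CCGGAAG in 9 (25.7%), against 7.83%. The YY1 core AAGATGGC was in 1 (2.86%, Atp5j), against 1.83%. Sdha and Sdhd of complex II, Cox6a1 of complex IV, and Atp5c1, Atp5g2, Atp5h and Atp5k of ATP synthase carried the NRF1 core. These are matches of letters, not mapped sites.

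Levels were compared between genes as CPM (counts scaled to a common library size, on libraries scaled by the trimmed mean of M-values) per kilobase of exon, averaged over the 17 libraries. Exon length joins all annotated transcripts of a gene. It can far exceed the median of its principal transcripts, as in Atp5b (4237 and 1916 nt) and Atp5e (1756 and 421 nt). The order of genes on this scale therefore depends on the length used. Cox8a, a small subunit of complex IV, had the highest level at 739 CPM per kilobase. It was followed by Cox6b1 at 532, Uqcr11 of complex III at 395 and Cox4i1 at 389 CPM per kilobase. The ranges over libraries of these genes overlapped, with Cox8a between 316 and 1563 CPM per kilobase and Cox6b1 between 225 and 1189. In complex II, Sdhd and Sdhb, a membrane anchor and the iron-sulfur subunit, averaged 203 and 124 CPM per kilobase, and the catalytic flavoprotein Sdha 68.4. Among ATP synthase genes the alpha subunit Atp5a1, the beta subunit Atp5b and the gamma subunit Atp5c1 were highest on this scale, at 267, 243 and 236 CPM per kilobase of exon. Cycs, cytochrome c, averaged 14.7 CPM per kilobase over an exon length that includes a long untranslated part. The median over the members of complex II was 96.1 CPM per kilobase, of complex III 119.5, of complex IV 85.0 and of ATP synthase 105.

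**Figure D1:**
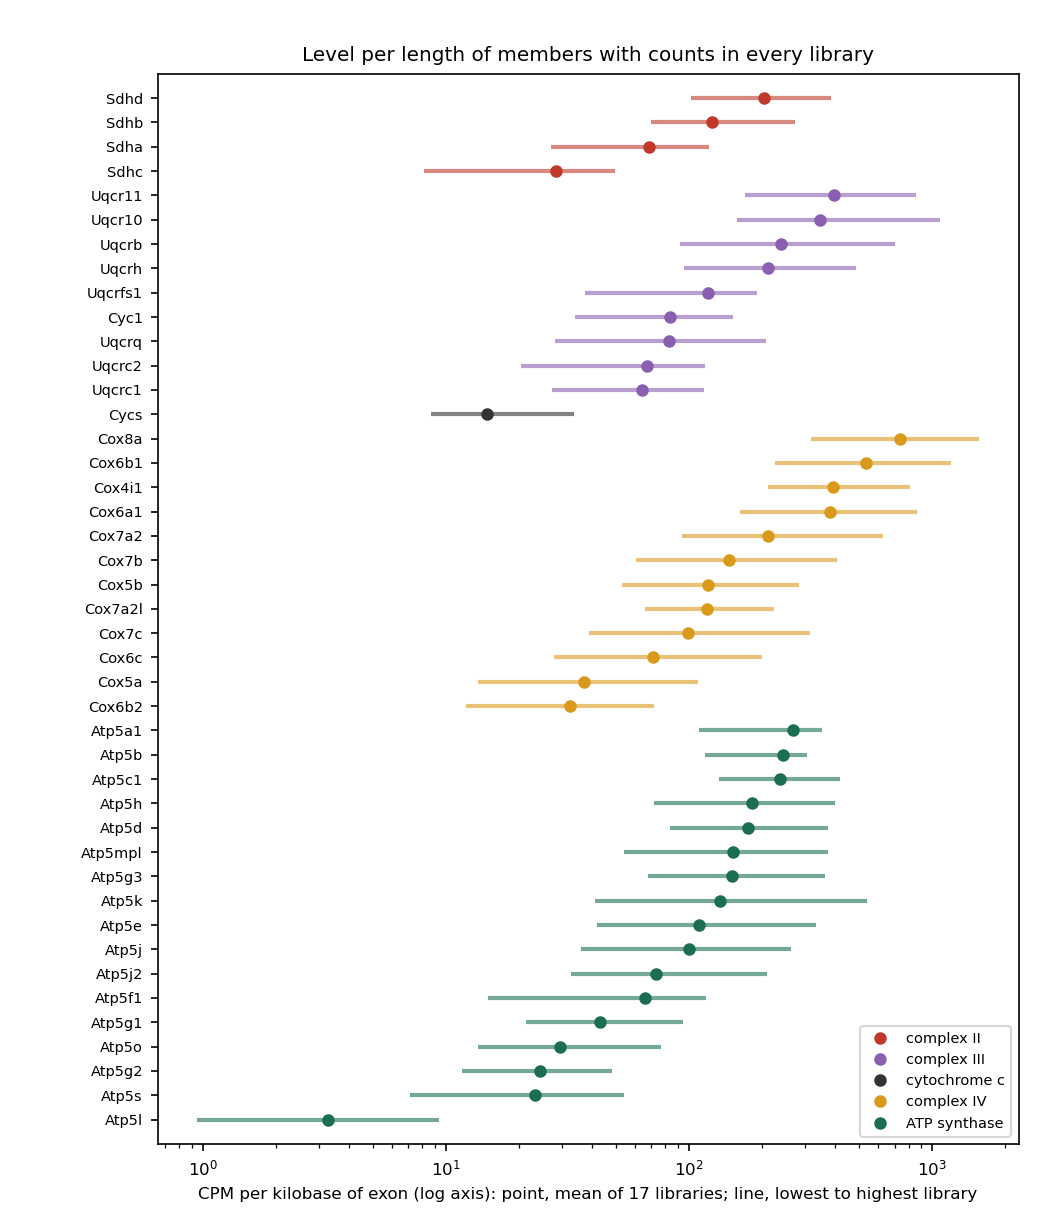
Level of members with counts in every library, in CPM per kilobase of exon on a log axis, grouped by complex. Points are means over 17 libraries and lines run from the lowest to the highest library. Cox8a is highest with a mean of 739 CPM per kilobase, and the lines of neighbouring members overlap.

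The forms of complex IV subunits known for general expression made up nearly all of their sets. Cox4i1 took 97.7% or more of the summed level per kilobase of Cox4i1 and Cox4i2 across libraries, and Cox7a2 took 96.8% or more of Cox7a2 and Cox7a1. The heart and skeletal muscle forms Cox6a2 and Cox8b had 4 and 8 counts in all libraries together. Cox7b2 had 33 counts in all, and 9 libraries had none. Cox6b2, a form known from testis, took 3.96% to 9.37% of the summed level of Cox6b1 and Cox6b2. Among the c subunit genes, Atp5g3 took 61.0% to 71.9% of the summed level, Atp5g1 15.96% to 22.7% and Atp5g2 7.97% to 17.1%. Atp5g1 was above Atp5g2 on this scale in all 17 libraries. Exon lengths are 4912 nt for Atp5g1 and 1675 nt for Atp5g2, against median transcripts of 2675.5 and 586 nt. This order and these shares therefore depend on the length used.

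Cox8c, another form known from testis, was low and uneven, with 240 counts in all libraries together, of which 1 library held 130. It had 1.19, 0, 25.3, 2.50 and 0.640 CPM in young CCCP libraries 1 to 5, and 0 CPM in all 4 young control libraries. A count of 0 allows up to 0.653 CPM per library at a floor of 3 counts. Cox8c was listed at 0, 0, 3.43, 3.74 and 0 CPM in old Mito-Q libraries, against 0.238, 1.14 and 3.71 CPM in old control libraries. Young CCCP 3 alone was well above the rest, and in it Cox8c made up 14.9% of the summed level of Cox8a, Cox8b and Cox8c. No fold is given against the young control group, since that group had no count.

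Gene counts per library ran from 5649611 (young control 3) to 8120443 (young CCCP 1). Reads in no annotated gene took 17.8% (old control 2) to 60.2% (young CCCP 3) of the counted entries, with old control 1 at 58.4%. Reads aligned to several places took 11.8% in young control 3, 11.5% and 10.8% in old control 2 and 3, and 10.5% in old Mito-Q 3, against at most 8.09% in the other libraries. The median rank correlation of a library with the others over genes tested was lowest in young CCCP 3 (0.682), old control 1 (0.799) and young control 3 (0.803). Summed over 10 stem cell genes (the gate and identity list), levels were 3081 to 3844 CPM in old Mito-Q, 2821 to 3021 in old control, 1769.6 to 4424 in young CCCP and 2565 to 3934 in young control libraries, with no gene of the list at 0. The 7 mature neutrophil genes summed to 269 to 12322 CPM in old Mito-Q, 571 to 932 in old control, 474 to 14241 in young CCCP and 201 to 1994 in young control libraries. The 5 primary granule and myeloid progenitor genes summed to 718 to 2068 CPM in old Mito-Q, 531 to 1519 in old control, 307 to 2274 in young CCCP and 215 to 248 in young control libraries, so that old control and young CCCP libraries all lay above the young controls. The 3 genes of progenitors outside the gate summed to 121 to 195 CPM in old Mito-Q, 118 to 164 in old control, 308 to 386 in young CCCP and 383 to 596 in young control libraries. Old control libraries lay below young controls for that list and above them for the 5 megakaryocyte and platelet genes (408 to 438 CPM in old control, 183 to 400 CPM in young control libraries). In bulk samples, fewer cells of a type and less RNA per cell cannot be told apart.

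Single libraries stood at the top or bottom of their group for many members. Young control 3 was the highest of its group for 29 of 46 members, against 24.2% of all genes tested. Old Mito-Q 3 was the highest for 33 members and young CCCP 3 for 29, against 26.2% and 32.3% of all genes. The same libraries were the lowest of their group for other members: old Mito-Q 3 for 9, young CCCP 3 for 15 and young control 3 for 11 of 46. These are 19.6%, 32.6% and 23.9% of members, below the 21.1%, 36.0% and 43.6% of all genes. Old control 1 was the lowest of its group for 43 of 46 members, against 34.3% of all genes. Old control 3 was the highest for 35, against 26.3% of all genes. Summed over the tested members, levels were 10029.8, 10829, 15335, 10000.1 and 9797 CPM in old Mito-Q 1 to 5 and 8303, 16804 and 18809 CPM in old control 1 to 3. The sums were 6423, 7281, 7921, 8308 and 8019.8 CPM in young CCCP 1 to 5, and 8682, 9717, 16467 and 8443 CPM in young control 1 to 4. Old Mito-Q 3 and young control 3 thus stood above the rest of their groups and old control 1 below it.

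Among members, the shifts in young control 3, old Mito-Q 3 and young CCCP 3 went with transcript length. The 43 members with a mean of at least 10 CPM were split at their median of 838 nt in transcript length (the median over a gene's principal transcripts). In young control 3 the 22 shorter members stood a median of 1.92 (log2) above the rest of the group and all 22 were higher, while the 21 longer members stood at 0.05. The 369 other protein-coding genes of at most 838 nt stood at 1.48 in the same library, and 9380 longer genes at -0.33. In old Mito-Q 3 the medians were 1.25 for shorter and 0.32 for longer members, against 0.96 and -0.08 for other shorter and longer genes. In young CCCP 3 they were 0.80 and -0.28, against 0.64 and -0.39. Old control 1 was low for both classes of member, at -1.37 and -1.09, against -1.26 for other shorter genes and -0.07 for other longer genes. The rank correlation across these 43 members between transcript length and the deviation of the library was -0.73 in young control 3, -0.72 in old Mito-Q 3 and -0.69 in young CCCP 3. Over 9792 protein-coding genes with a mean of at least 10 CPM it was 0.03, -0.13 and 0.09 in that order. In old control 1 it was 0.39 over members and 0.51 over those genes. Some long members also stood high in young control 3, with Atp5g1 (2675.5 nt) at 1.71 and Cycs (3123 nt) at 1.43. The correlation is given as a description, since the members share each library.

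**Figure D2:**
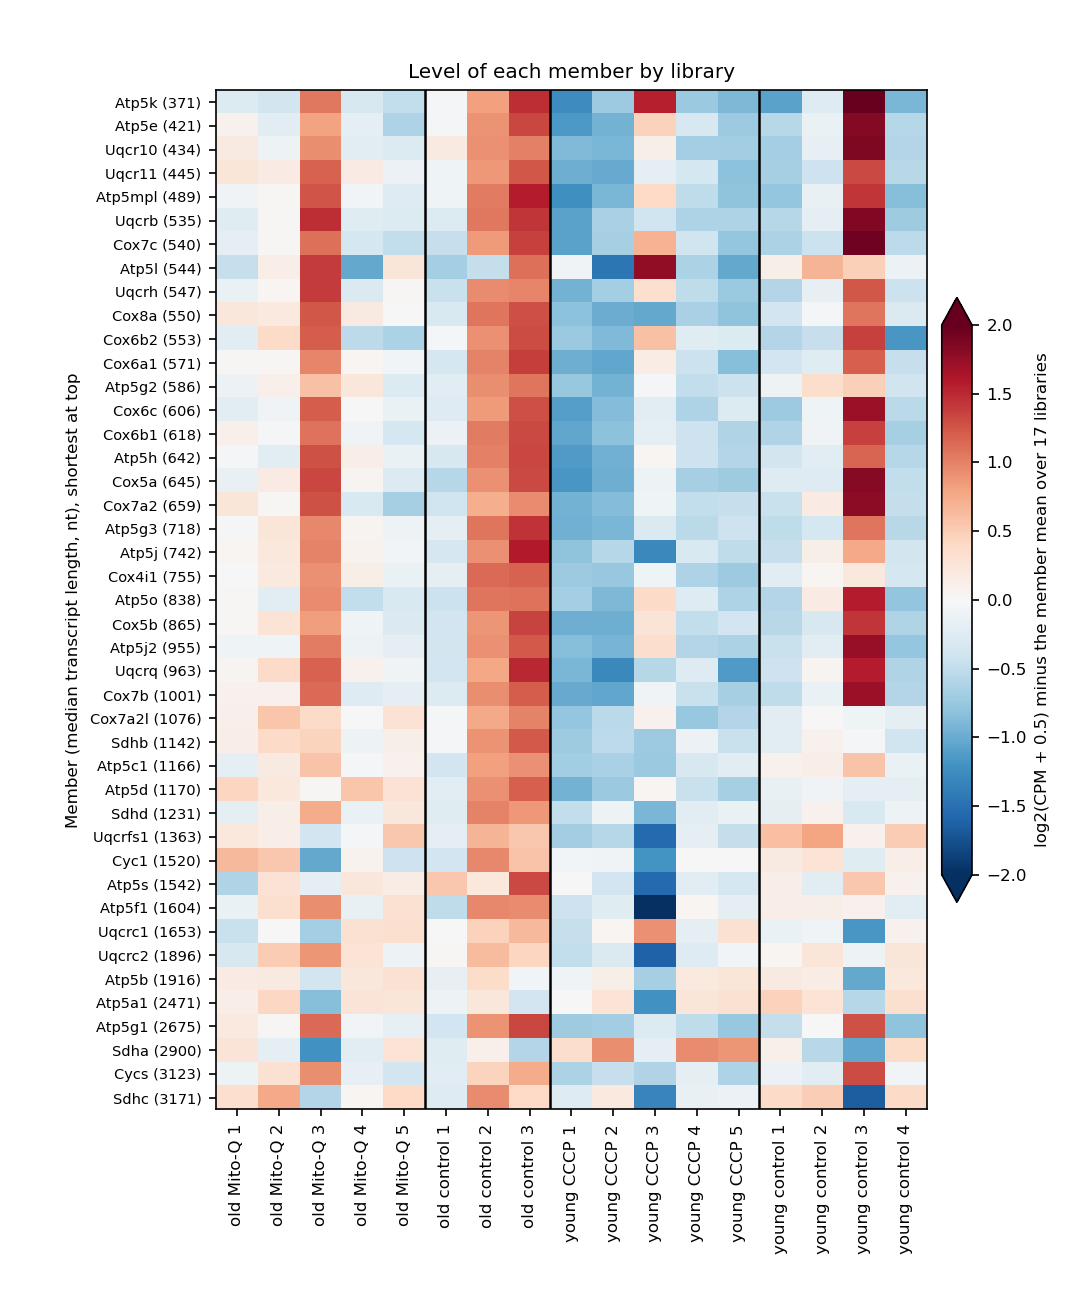
Level of 43 members in each of 17 libraries as log2(CPM + 0.5) minus the member's mean over libraries, with members ordered from shortest to longest median transcript length. Black lines separate the groups. Short transcripts are high in old Mito-Q 3, old control 2 and 3 and young control 3, and old control 1 is low beside the other old control libraries.

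Atp5b, with a long transcript, was low in several of the same libraries. This catalytic beta subunit had 1129.9, 1141, 778, 1180.2 and 1242 CPM in old Mito-Q libraries, against 897, 1290.2 and 965 CPM in old control libraries. It had 947, 1089, 635, 1148 and 1185 CPM in young CCCP libraries, against 1132, 1111, 495 and 1165 CPM in young control libraries. Library 3 was the lowest in old Mito-Q, young CCCP and young control, the libraries in which short members such as Atp5k were highest. Atp5k, the small e subunit of the membrane part, had 50.3, 47.1, 127, 48.7 and 43.0 CPM in old Mito-Q libraries and 60.3, 108 and 171 CPM in old control libraries. It had 25.2, 36.6, 181, 36.3 and 32.5 CPM in young CCCP libraries and 28.9, 51.2, 331 and 32.0 CPM in young control libraries. Atp5k was chosen as an example after its values were seen.

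**Figure D3:**
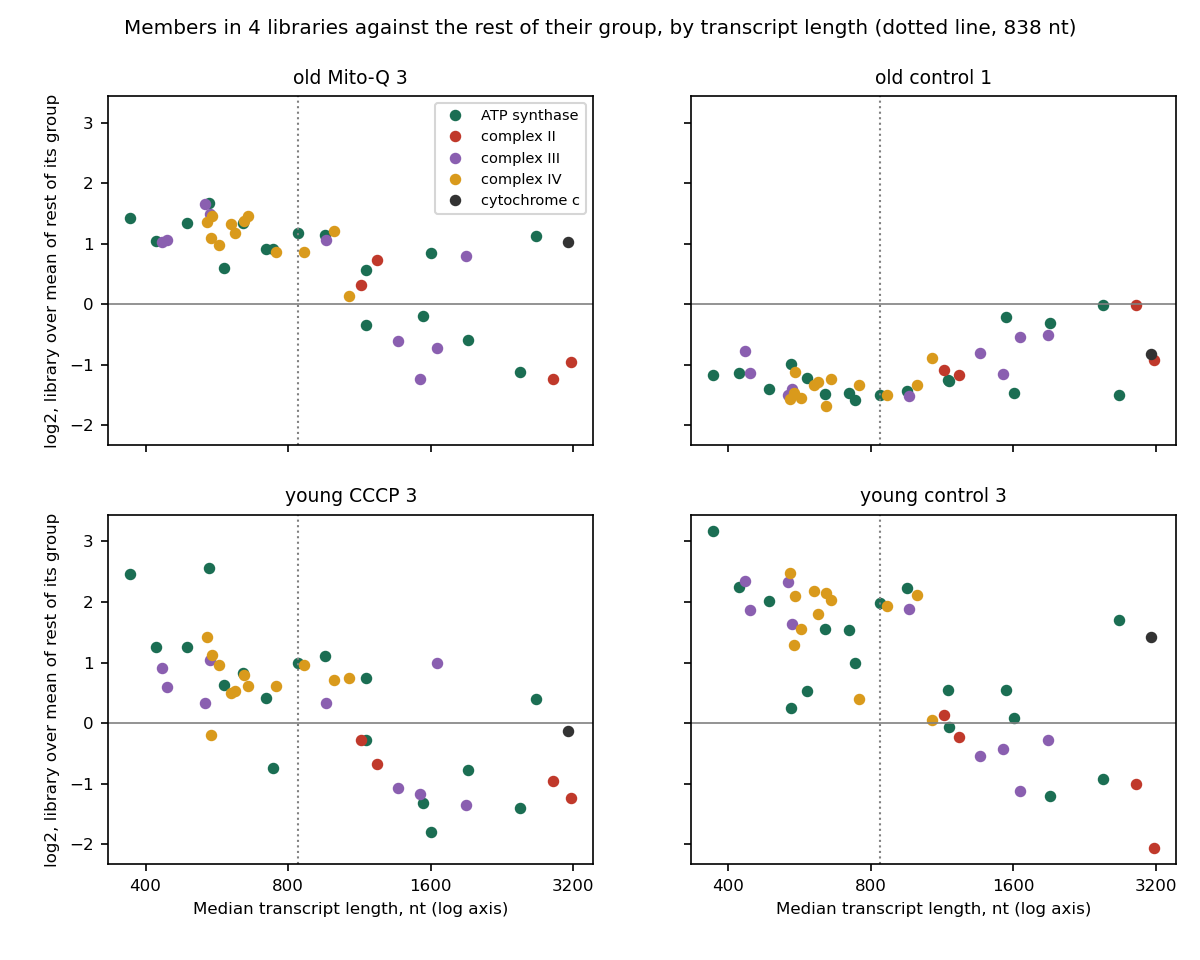
Deviation of 43 members (log2 of the library minus the mean log2 of the rest of its group, on CPM + 0.5) against median transcript length on a log axis, for old Mito-Q 3, old control 1, young CCCP 3 and young control 3. Colours mark complexes and the dotted line is at 838 nt. Members left of the line have a median of 1.92 in young control 3 and run from 0.25 (Atp5l) to 3.18 (Atp5k), and all 43 members in old control 1 lie below 0.

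In young CCCP against young control cells, 41 of 46 members had a negative fold change, and none passed the test at an adjusted p-value of 0.05 (edgeR quasi-likelihood, Benjamini-Hochberg over 24523 genes, of which 0.718% passed). The median log2 fold change of the members was -0.70, against 0.21 over all genes tested. At an unadjusted p-value below 0.05, 18 members were lower and 2 higher, against 4.8% and 6.35% of all genes. Medians were -0.83 in complex III (9 members), -0.77 in complex IV (15), -0.69 in ATP synthase (17) and -0.29 in complex II (4). Sdha, Uqcrc1, Cox8c, Cox4i2 and Atp5b were the members with a positive fold change.

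Uqcrfs1 came closest to the threshold. It had 93.5, 101, 50.9, 133 and 108 CPM in young CCCP libraries, against 229, 260.4, 160.1 and 214 CPM in young control libraries. Every CCCP library lay below every control library, as for Cox8a and Atp5c1 among the members, and for 2.89% of all genes in this direction. On the log2 scale the difference was -1.15 (SE 0.29, with an edgeR adjusted p of 0.0615), and the change ran from -1.29 to -0.95 over the alternatives, with adjusted p between 0.0031 and 0.346. Uqcrfs1 lies at 30540308 to 30545362 on chromosome 13 and no other annotated gene overlaps it. Its median transcript is longer than 838 nt, and its level in young control 3 was the lowest of its group.

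Cox8a had 225, 199, 196, 252 and 228 CPM in young CCCP libraries, against 304, 391, 832 and 326 CPM in young control libraries. The groups did not overlap, and 1 control library was far above the rest. For Cox8a the log2 difference was -1.07 (SE 0.33, with an edgeR adjusted p of 0.216), and it was -0.65 without young control 3. Atp5c1, the gamma subunit that turns inside the head, had 263, 270.2, 253, 342 and 369 CPM in young CCCP libraries, against 449, 466, 633 and 387 CPM in young control libraries. The change was -0.69 on the log2 scale (SE 0.27, adjusted p = 0.351 by edgeR).

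The other members of smallest p-value rested on young control 3. Uqcrq, a small subunit of complex III, had 67.0, 51.4, 85.5, 106 and 57.4 CPM in young CCCP libraries, against 95.1, 132, 378 and 83.6 CPM in young control libraries. The log2 fold change of Uqcrq was -1.23, and -0.52 without young control 3. Cox5a had 28.5, 32.3, 60.3, 40.5 and 39.0 CPM in young CCCP libraries, against 53.9, 53.6, 228 and 45.8 CPM in young control libraries. The log2 fold change of Cox5a was -1.25, and -0.38 without young control 3. Cox7a2 had 88.2, 93.4, 162, 121 and 124 CPM in young CCCP libraries, against 126, 192, 591 and 123 CPM in young control libraries. For Cox7a2 it was -1.13, and -0.35 without young control 3. For all 3 genes the groups overlapped and the highest control library was young control 3.

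Sdha was the member with the smallest p-value among those higher after CCCP, apart from Cox8c. It had 329, 494, 229, 498 and 479.7 CPM in young CCCP libraries, against 278, 176, 125 and 332 CPM in young control libraries. Of the CCCP libraries, 3 lay above every control library and the others within their range. The log2 fold change was 0.83 (SE 0.33, adjusted p = 0.359 by edgeR), and 0.63 without young control 3. Sdhb, Sdhc and Sdhd had negative fold changes in the same comparison. Uqcrc1, a core protein of complex III, had a log2 fold change of 0.45 and groups that overlapped.

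Without young control 3, the median over members was -0.23 and 1 member had an unadjusted p-value below 0.05 and was lower, against 3.14% of all genes. Without young CCCP 3 and young control 3, both of which stood apart, the median was -0.28 and 41 of 46 members were negative. In 11 members, Uqcrfs1, Cox8a and Atp5c1 among them, the CCCP libraries then lay below the control libraries, against 7.02% of all genes. With all libraries, shorter members had a median of -0.80 and longer members of -0.45. Other shorter genes stood at -0.58 and other longer genes at -0.00. Without young control 3 these medians were -0.16, -0.38, -0.12 and -0.06. Without both libraries they were -0.32, -0.27, -0.20 and 0.003. DESeq2 called Uqcrfs1 lower and Cox8c higher, with 2.28% of all genes called. The mature neutrophil genes reached higher sums in some young CCCP libraries than in any young control library, as given above. The primary granule genes did so in all of them. For erythroid genes the highest sum was 1240 CPM in young CCCP and 232 CPM in young control libraries. For monocyte and macrophage genes these sums were 185 and 39.6 CPM, and for progenitors outside the gate 386 and 596 CPM. The part of these cells in the results was not tested.

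**Figure D4:**
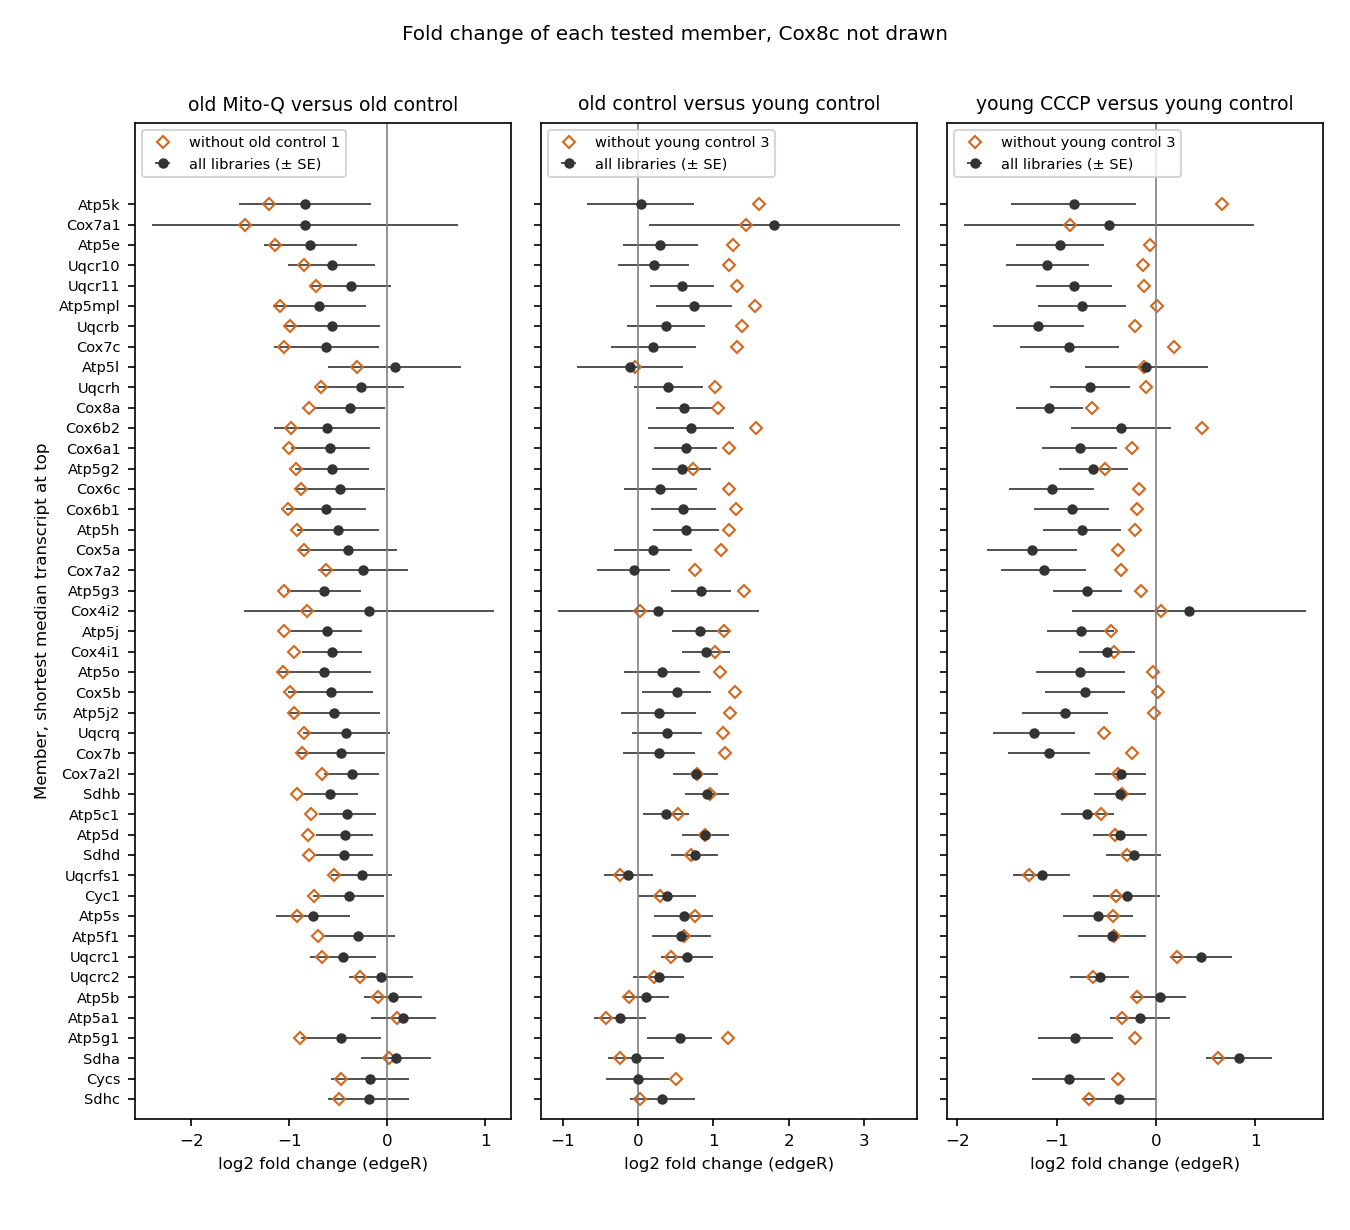
Log2 fold change (edgeR, ± SE) of each tested member other than Cox8c in 3 comparisons, with members ordered from shortest (top) to longest median transcript. Open diamonds give the fit without old control 1 (left panel) or without young control 3 (middle and right panels). In the right panel most diamonds lie nearer to 0 than the points, with Uqcrfs1 at -1.15 with all libraries.

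In old Mito-Q against old control cells, 42 of 46 members had a negative fold change and none passed the test (edgeR, and none by DESeq2), where 0.542% of all genes did. The median over members was -0.46, against -0.12 over all genes. Medians were -0.54 in ATP synthase, -0.49 in complex IV, -0.39 in complex III and -0.32 in complex II. All 9 members of complex III and all 15 tested members of complex IV were negative, and none passed the test. At an unadjusted p-value below 0.05, 1 member was lower, against 4.93% of all genes, and no member had groups that did not overlap, against 2.2% of all genes lower in this way.

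That member was Sdhb, the iron-sulfur subunit of complex II. Sdhb had 284, 338, 354, 241 and 281 CPM in old Mito-Q libraries, against 254, 482 and 609 CPM in old control libraries. Old control 1 lay within the Mito-Q range and the other control libraries above it. The log2 fold change was -0.58 (SE 0.28, adjusted p = 0.488 by edgeR). Cox4i1, the large regulatory subunit of complex IV, had 556, 629, 1041, 599 and 505 CPM in old Mito-Q libraries, against 487, 1214 and 1251 CPM in old control libraries. For Cox4i1 old control 1 was the lowest of all 8 libraries, and the log2 fold change was -0.56 (SE 0.31). Atp5g3 had 285, 341, 561, 299 and 269 CPM in old Mito-Q libraries, against 251, 608 and 787 CPM in old control libraries, with the same order. For Atp5g3 it was -0.64 (SE 0.38).

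Atp5j, coupling factor 6 in the stalk of ATP synthase, had 281, 319, 544, 289 and 265 CPM in old Mito-Q libraries, against 217, 521 and 825 CPM in old control libraries. Gabpa is annotated on the opposite strand across part of Atp5j, and whether counting used strand is not given in the sources used here, so reads of the 2 genes cannot be told apart. Other members named here also overlap annotated genes, with the same uncertainty. Among them are Atp5d (Cbarp), Sdha (Gm16125) and Atp5a1 (Haus1), each with a gene on the opposite strand. Cox4i1 overlaps Gm20388 on the same strand and Emc8 on the opposite strand. Atp5s, known as factor B, had 28.9, 53.7, 38.6, 51.6 and 48.8 CPM in old Mito-Q libraries, against 64.1, 50.6 and 110.2 CPM in old control libraries. The log2 difference of Atp5s was -0.76 (SE 0.38). In the other direction, the fold changes of Atp5a1, Sdha, Atp5b and Atp5l were between 0.06 and 0.16 on the log2 scale, each smaller than its standard error.

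The size of these differences depended on single libraries. Without old control 1 the median over members was -0.85, against 0.31 over all 26937 genes then tested. In 15 members the Mito-Q libraries then lay below both remaining control libraries, against 8.62% of all genes. Sdhb, Cox4i1 and Atp5g3 were among the 15. Without old control 3 the median over members was -0.17, and without old Mito-Q 3 it was -0.73. Over all genes these medians were -0.09 and -0.17. None of the 46 members passed the test in any of these fits. With all libraries, shorter members had a median of -0.57 and longer members of -0.41. Other shorter genes stood at -0.53 and other longer genes at 0.10.

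**Figure D5:**
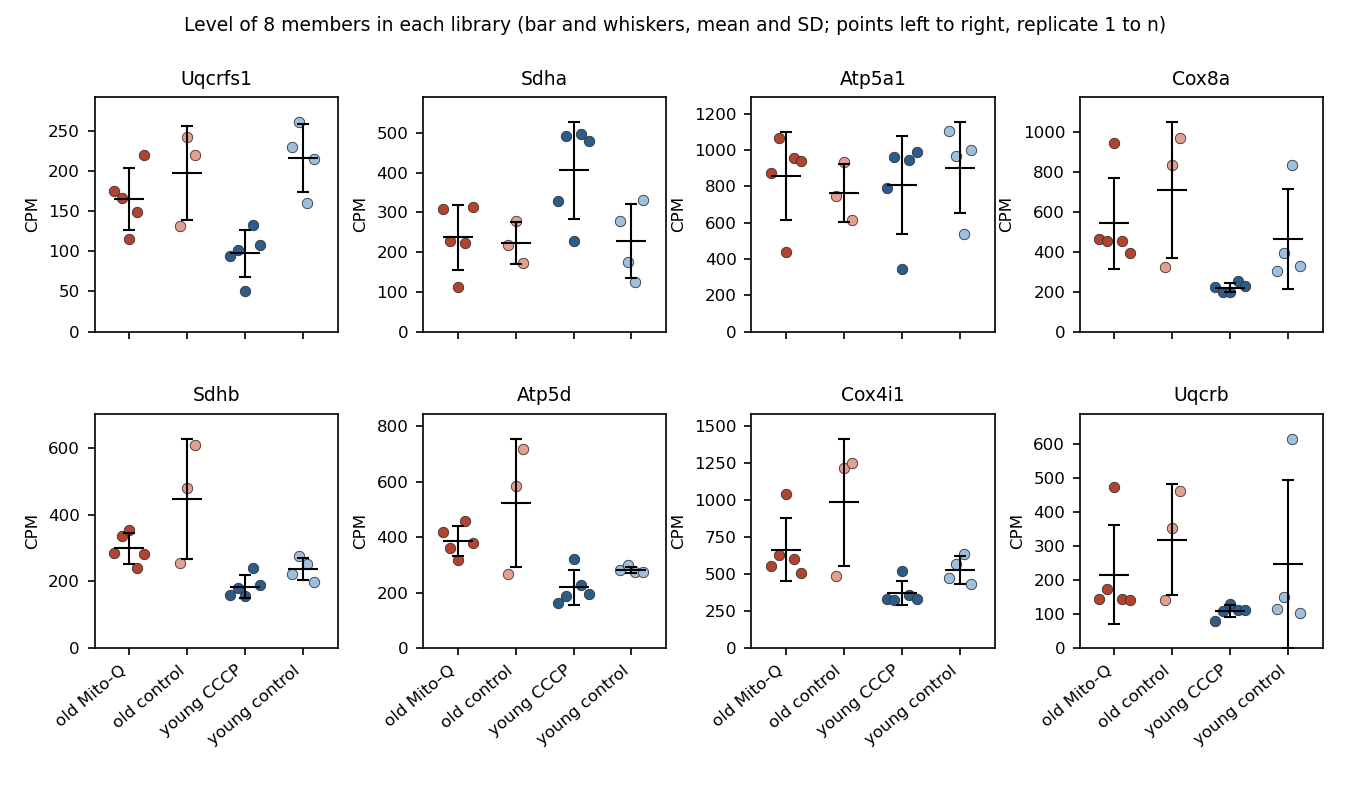
Level in CPM of 8 members in each library, by group. Points are libraries in the order of their number, the bar is the mean and the whiskers are the SD. Uqcrfs1 lies between 50.9 and 133 CPM in young CCCP libraries and is higher in each young control library, while Sdhb, Atp5d and Cox4i1 have a single low library among old controls.

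In old control against young control cells, 40 of 46 members had a positive fold change and none passed the test, where 1.69% of all genes did (415, of which 128 were higher and 287 lower, edgeR). With upper-quartile scaling the split of all genes was 190 higher and 237 lower, and no member was called. The median over members was 0.39, against 0.16 over all genes. At an unadjusted p-value below 0.05, 8 members were higher and none lower, against 6.77% and 7.45% of all genes. Medians were 0.60 in complex IV, 0.55 in ATP synthase, 0.54 in complex II and 0.39 in complex III. Cox8c was the 1 member whose groups did not overlap, against 5.04% of all genes higher in this way, but its level in old control 1 (0.238 CPM) is below what a count of 0 allows in a young control library, so that this separation was not detectable at this depth.

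Sdhb had the smallest p-value. It had 254, 482 and 609 CPM in old control libraries, against 224, 276, 253 and 197 CPM in young control libraries. Old control 1 lay within the young range and the other old libraries above it. For Sdhb the log2 difference was 0.92 (SE 0.29, with an edgeR adjusted p of 0.123). Atp5d, the delta subunit of the head, had 267, 586 and 718 CPM in old control libraries, against 282, 298, 273 and 273 CPM in young control libraries. Its log2 fold change was 0.90 (SE 0.31, adjusted p = 0.164 by edgeR), with old control 1 below every young library.

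Cox4i1 had 487, 1214 and 1251 CPM in old control libraries, against 472, 566, 638 and 431 CPM in young control libraries. Its log2 fold change was 0.90 (SE 0.32, adjusted p = 0.183 by edgeR), and old control 1 again lay among the young libraries. Cox7a2l had 164, 281 and 332 CPM in old control libraries, against 143, 167, 156 and 144 CPM in young control libraries. Its log2 fold change was 0.76 (SE 0.29). For Sdhb, Atp5d and Cox7a2l, young control 3 lay within the range of the other young libraries, and for Cox4i1 it was the highest of them. The lower fold changes were small, with Atp5a1 at -0.24, Uqcrfs1 at -0.13 and Sdha at -0.03 on the log2 scale.

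Young control 3 and old control 1 acted on this comparison in the same direction. Without young control 3 the median over members was 1.08, and 28 members had an unadjusted p-value below 0.05 and were higher, against 7.37% of all genes. In 9 members the old libraries then lay above the young ones, against 8.19% of all genes. Atp5a1 lay below, as did 2990 of 24326 genes. Atp5g3 passed the test in that fit, as did 1.98% of all genes. Without young CCCP 3 and young control 3, 10 members passed and were higher, with 5.43% of all genes called: Atp5e, Atp5g3, Atp5j2, Atp5k and Atp5mpl of ATP synthase, Uqcr10 and Uqcr11 of complex III, and Cox5b, Cox6a1 and Cox6b1 of complex IV. Without old control 1 the median over members was 0.80, against -0.35 over all genes. Atp5d, Sdhb and Cox4i1 then passed, as did 2.54% of all genes. DESeq2 on all libraries called Atp5d and Sdhb, with 5.15% of all genes called. With all libraries, by edgeR, shorter members had a median of 0.49 and longer members of 0.39. Other shorter genes stood at 0.62 and other longer genes at -0.11. Without young control 3 these medians were 1.21, 0.60, 1.16 and -0.17. The sums of primary granule, progenitor and megakaryocyte genes differed between the same groups, as given above, and their part in these results was not tested.

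All old libraries carry the letter A in their names and all young CCCP libraries the letter C, while young control 1 and 2 carry A and young control 3 and 4 carry C. What the letter stands for is not given in the sources used here. With the letter as a term, the median over members was 0.99 in old control against young control and -1.05 in young CCCP against young control, and no member was called. The value for old control cells then rests on young control 1 and 2, which share their letter, and the value for young CCCP cells on young control 3 and 4. The comparisons of old control and young CCCP cells share the young control libraries, and those of Mito-Q and old control cells share the old control libraries, so that their opposite directions are not separate observations.

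The 6 partners encoded by mitochondrial DNA also varied between libraries of a group. Summed levels were 7204, 9101, 20994, 6040.2 and 10173 CPM in old Mito-Q libraries, 4404, 14101 and 12357 CPM in old control libraries, 3864, 4894, 3065, 5787 and 8357 CPM in young CCCP libraries and 6669.5, 7060.4, 19731 and 5581 CPM in young control libraries. Old Mito-Q 3 and young control 3 were again highest in their groups and old control 1 lowest, while young CCCP 3 was the lowest of its group. mt-Cytb of complex III and mt-Co1 of complex IV gave nearly all of the sum, while mt-Co2, mt-Co3, mt-Atp6 and mt-Atp8 had few counts and have near-identical nuclear copies, so their values are uncertain. None of the 5 tested passed in any comparison by edgeR or DESeq2, and 1 had an unadjusted p-value below 0.05, after CCCP. The median log2 fold change was -1.26 after CCCP, with mt-Cytb at -1.14 (SE 0.43, adjusted p = 0.331 by edgeR), and mt-Cytb averaged 1959 ± 636 CPM in young CCCP libraries (SD, n = 5) and 4314 ± 3772 CPM in young control libraries (SD, n = 4). Without young control 3, which had 9966 CPM of mt-Cytb, the median was -0.29 and mt-Cytb stood at -0.32 (SE 0.39).

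Factors that assemble complex IV held the single gene of the related lists that passed the test. In old control against young control cells, where 1.69% of all genes passed, 1 of 22 tested was higher and none was lower. That gene was Coa4, which averaged 40.9 ± 12.0 CPM in old control libraries (SD, n = 3) and 5.37 ± 4.58 CPM in young control libraries (SD, n = 4). The log2 difference was 2.91 (SE 0.74, with an edgeR adjusted p of 0.0395), and the groups did not overlap, with Coa4 at 0 in young control 3. Groups did not overlap in this direction for 5.04% of all genes. At an unadjusted p-value below 0.05, 7 of the 22 were higher and 1 lower, against 6.77% and 7.45% of all genes, and DESeq2 called 5, against 5.15% of all genes. Surf1, needed for insertion of haem into complex IV, had a log2 fold change of 1.504 (adjusted p = 0.0689 by edgeR) and Coa5 of -1.501 (adjusted p = 0.0904 by edgeR). The median of the list was 0.88, with 16 genes positive and 6 negative. None of the 22 passed in the young CCCP or old Mito-Q comparison by edgeR, where DESeq2 called 1 in each, against 2.28% of all genes after CCCP and 1.81% after Mito-Q. At an unadjusted p-value below 0.05, 2 were higher and 3 lower after CCCP, against 6.35% and 4.8% of all genes, and 1 higher and 3 lower after Mito-Q, against 5.12% and 4.93%. Coa4 had log2 fold changes of 1.83 after CCCP and -1.37 after Mito-Q.

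None of the assembly factors of complex II (4 tested), complex III (6) or ATP synthase with its regulators (7) passed in any comparison by edgeR or DESeq2, and in no comparison did more than 2 of a list have an unadjusted p-value below 0.05. Uqcc3, an assembly factor of complex III, had log2 fold changes of -0.87 in old Mito-Q against old control cells and 1.05 in old control against young control cells. Atpif1, which inhibits ATP synthase when it runs backwards, had log2 fold changes of -0.77 in old Mito-Q against old control cells, 0.54 in old control against young control cells and -0.70 after CCCP. The adjusted p-values by edgeR were 0.639, 0.722 and 0.607 in that order. Of 16 regulators of respiratory genes, none passed by edgeR in any comparison. Unadjusted p-values below 0.05 were found for 1 higher after Mito-Q, 2 lower in old control cells and 4 higher after CCCP. Of all genes, 5.12%, 7.45% and 6.35% were so in that order. DESeq2 called 1 in old control and 1 in CCCP cells, against 5.15% and 2.28% of all genes. Gabpa, a subunit of nuclear respiratory factor 2, had a log2 fold change of -1.69 in old control against young control cells (adjusted p = 0.119 by edgeR). Gabpb2, a partner of Gabpa, had a log2 fold change of 1.28 after CCCP (adjusted p = 0.141 by edgeR).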

How the data were processed

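RNA-seq was made from sorted stem cells of 17 libraries with Nextera XT at reduced volume, per the labels' protocols. Trim Galore, STAR 2.7 and GRCm38 are named in the submitters' processing notes. The counting program, its annotation and its use of strand are not given in the sources used here. The authors deposited raw counts per Ensembl gene, 1 file a library, with 54838 genes and 5 closing entries, which were left out of library sizes. Gene totals ran from 5649611 to 8120443.

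The counts were fitted with edgeR 4.0.16 (R 4.3.3): trimmed-mean scaling, genes kept by a minimum count of 10 (24523), a robust quasi-likelihood fit over all 17 libraries in 4 groups, and Benjamini-Hochberg adjustment over all genes, with 0.05 as the threshold. CPM use the scaled library sizes. The fit was run on simulated counts with known fold changes added. These held no library that stands apart from its group, so the run does not cover that setting. Library totals, relative-log and upper-quartile scaling, other filters, DESeq2 1.42.0, fits of 2 groups, the replicate number as a block, the library letter as a term and each library left out were tried. A fold change is tested group over control. Deviations by length use log2(CPM + 0.5).

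Members and lists were chosen with earlier results of these data known. Members named are those called, up to 5 of smallest p in each direction and comparison, the 3 highest per kilobase in each role and the paralogue sets. Of other lists, those called and up to 3 of smallest p are named. Members called under another setting are named with it.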

Additional observations from a re-analysis of the deposited data

Results flagged for a closer look

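Groups of 4 or 5 libraries were examined for the 19 members of smallest p-value in each direction and comparison, not for every member named. In 17 of 56 such groups the highest or lowest library lay far from the nearest of the others by Dixon's criterion. Chance alone gives about 1 in 20 such groups, but that rate is no fair measure here. The members were chosen by p-value in these data and share their libraries. All 17 involve library 3 of old Mito-Q (7), young CCCP (4) or young control (6).

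Old Mito-Q 3 was high for Atp5g3 (561 CPM), Atp5j (544 CPM), Cox4i1 (1041 CPM), Cox5a (163 CPM), Cox8a (944 CPM) and Uqcrq (287 CPM), and low for Atp5b (778 CPM). Young CCCP 3 was high for Atp5l (60.7 CPM), Cox4i1 (518 CPM), Cox7a2l (176 CPM) and Cox8c (25.3 CPM). Young control 3 was high for Atp5g3 (606 CPM), Cox5a (228 CPM), Cox7a2 (591 CPM), Cox8a (832 CPM) and Uqcrq (378 CPM), and low for Atp5b (495 CPM). The genes that stood high have median transcripts shorter than 838 nt, apart from Uqcrq (963 nt) and Cox7a2l (1076 nt), and Atp5b, which stood low, has one of 1916 nt. Whether cells, RNA or library preparation differed was not tested.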

How the results depend on the processing

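Of 1537 alternative values for 57 named fold changes, 1453 kept their direction and side of the threshold, 15 passed it anew and 69 changed sign. The labels do not say that equal replicate numbers mark a shared mouse or day, and deviations of equally numbered libraries correlated between -0.10 and 0.13. With the replicate number as a block, 404, 130 and 168 genes were called for old control against young control, old Mito-Q against old control and young CCCP against young control cells, with 0, 0 and 1 members.

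Genes called for old control against young control cells numbered 1263 with DESeq2, 186 with only the 2 groups compared, 155 with the library letter and 1271 without young CCCP 3 and young control 3. Leaving out each library in turn gave 125 to 755. Members called numbered 2 with DESeq2, 10 without both libraries and 0 to 3 with each left out. Their median was 0.99 with the letter, 1.08 without both and 0.21 to 1.08 with each left out. For old Mito-Q against old control cells, 445 genes were called with DESeq2, 341 without both, and 79 to 219 with each left out. For young CCCP against young control cells, 324 were called with no filter, 558 with DESeq2 and 111 with only the 2 groups. Members called there numbered 1 with relative-log or upper-quartile scaling (Uqcrfs1), 3 with no filter (Uqcrb, Cox8a and Uqcrq) and 2 with DESeq2. With the block 1 was called, and 0 to 1 with each library left out. The median over all members was -1.05 with the letter and ran from -0.88 to -0.23 with each library left out.

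Apart from fits that left out 1 library, most values that changed sign were small, with Cox7a2 the exception. For old control against young control cells, Atp5b was -0.095 with the letter and -0.11 without both. Cox4i2 was -0.013 with the block and -0.062 with the letter. Cox7a2 was 0.013 with library totals, 0.025 with the block, 0.64 with the letter and 0.76 without both. Sdha was 0.065 with relative-log scaling, 0.12 with upper-quartile scaling, 0.065 with DESeq2 and 0.17 with the block. For old Mito-Q against old control cells, Atp5a1 was -0.067 with the block. Atp5b was -0.011 with relative-log scaling, -0.079 with upper-quartile scaling, -0.011 with DESeq2 and -0.11 with the block. Atp5l was -0.025 and Sdha -0.057 with upper-quartile scaling, and Sdha -0.20 with the block. After CCCP, Atp5a1 was 0.070 with the letter. Atp5b was -0.0061 with upper-quartile scaling and -0.047 without both. Atp5l was 0.081 with relative-log scaling, 0.082 with DESeq2 and 0.021 with the letter.

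With each library left out, ranges that crossed 0 for old control against young control cells were -0.12 to 0.26 (Atp5b), -0.95 to 0.26 (Atp5l), -0.65 to 0.90 (Cox4i2), -0.19 to 1.10 (Cox5a), -0.31 to 0.76 (Cox7a2), -0.27 to 0.21 (Sdha), -0.32 to 0.15 (Uqcrfs1) and -0.12 to 1.13 (Uqcrq). For old Mito-Q against old control cells they were -0.10 to 0.27 (Atp5b), -0.45 to 0.92 (Atp5l), -0.82 to 0.74 (Cox4i2), -0.85 to 0.0038 (Cox5a), -0.70 to 0.016 (Cox7a2), -0.97 to 1.04 (Cox8c), -0.059 to 0.32 (Sdha) and -0.85 to 0.10 (Uqcrq). After CCCP they were -0.35 to 0.031 (Atp5a1), -0.19 to 0.16 (Atp5b) and -1.06 to 0.10 (Atp5l). The cause was not tested. The median of all genes moved with scaling and with old control 1. With upper-quartile in place of trimmed-mean scaling it was 0.28 (0.16) for old control against young control cells and -0.25 (-0.12) for Mito-Q. With library totals it was 0.33 (0.21) for CCCP. Without old control 1 it was -0.35 for old control against young control cells and 0.31 for Mito-Q.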
